A study of Mus musculus with 3 samples.

Results

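The antioxidant programme controlled by the transcription factor NRF2 was followed in 10 genes across acinar cells, duct cells and cells in acinar-to-ductal metaplasia (ADM) of the mouse pancreas. The genes were chosen by name: Nfe2l2, which encodes NRF2, its inhibitor Keap1, and the effectors Gclc, Gclm, Slc7a11, Txnrd1, Srxn1, Prdx1, Nqo1 and Hmox1. Every probe whose RefSeq accession belongs to one of them was taken, which gave 12 probes of 55664 and 10 genes of 21150 that could be named. The material came from frozen pancreas of 3 wild-type (WT) mice, 48 h after pancreatitis was induced with caerulein, a peptide that overstimulates acinar secretion. ADM, duct and acinar cells were each collected by laser microdissection and each hybridised to 1 Cy3 array, and all 3 groups therefore carry the injury. No array of uninjured pancreas was used here. Strain, age, the features by which cells were recognised, and whether an array holds 1 mouse or a pool, are not given in the sources used here. With 1 array a group there is no replicate and no test between groups.

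On these arrays the members did not move as a block. Hmox1 had its highest level in ADM cells, 6.02-fold above acinar cells and 17.8-fold above duct cells, by the brighter of its probes. Keap1 went the other way, with a level in ADM cells 12.6-fold below acinar cells and 8.58-fold below duct cells. Nqo1 was well above background in duct cells only, and Gclc was also highest there. Nfe2l2 itself was within 2-fold in each comparison at the scaling used here, and Gclm and Slc7a11 were not well above background on any array.

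NRF2 is a transcription factor whose protein is normally held at a low amount by KEAP1, an adaptor that hands it to a CUL3 ubiquitin ligase. When electrophiles or oxidants modify cysteines of KEAP1, NRF2 escapes, pairs with small MAF proteins and binds antioxidant response elements near genes for glutathione synthesis, thioredoxin recycling, quinone reduction and haem breakdown. Control is thus largely at the protein level, and an array of transcripts reads the output of the pathway rather than the amount of NRF2 protein. In the pancreas NRF2 is known for limiting oxidative damage in pancreatitis and for its activity in pancreatic cancer.

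The promoters of the members are shown because the antioxidant response element is the sequence that defines NRF2 targets. RefSeq windows on GRCm38.p6, from 250 bases before to 50 bases after each start, covered 8 of the 10 members in 10 windows. Hmox1 and Gclc had no entry in the table used. The core element TGACNNNGC, searched on both strands, lay in 5 of the 8 members (Nfe2l2, Gclm, Txnrd1, Srxn1 and Prdx1). By window this was 5 of 10, beside 12.4% of all 32851 windows. Counted by gene, 12 of 54 other pathway genes with windows held it. The AP-1 site TGACTCA, which can overlap that core, lay in Srxn1 and Prdx1 and in 5.20% of all windows. A 110-base stretch upstream of the start follows for each of these 5 genes, on the gene's own strand, 5′ to 3′, with matches to either motif in capitals.
Nfe2l2, chr2:75704804-75704913, minus strand: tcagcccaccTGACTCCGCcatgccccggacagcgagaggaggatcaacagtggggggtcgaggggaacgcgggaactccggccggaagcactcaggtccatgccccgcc
Gclm, chr3:122245372-122245481, plus strand: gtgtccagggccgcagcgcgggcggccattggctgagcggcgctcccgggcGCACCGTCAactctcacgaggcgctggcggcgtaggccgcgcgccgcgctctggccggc
Txnrd1, chr10:82859063-82859172, plus strand: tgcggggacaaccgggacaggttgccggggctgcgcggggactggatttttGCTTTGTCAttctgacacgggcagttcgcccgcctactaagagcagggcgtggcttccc
Srxn1, chr2:152105399-152105508, plus strand: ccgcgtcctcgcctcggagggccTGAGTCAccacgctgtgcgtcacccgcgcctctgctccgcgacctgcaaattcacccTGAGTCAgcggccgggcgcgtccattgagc
Prdx1, chr4:116685415-116685524, plus strand: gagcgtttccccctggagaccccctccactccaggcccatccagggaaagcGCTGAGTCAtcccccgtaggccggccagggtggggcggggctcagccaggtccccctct

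In Nfe2l2 the core match runs on the gene's strand, and in Gclm, Txnrd1 and Prdx1 on the opposite strand, where it reads GC first. In Prdx1 the core and an AP-1 site overlap, an arrangement found in 0.454% of all windows and in 1 of the 8 members. The core match of Srxn1 lies after the start and is not printed, and its 2 capitalised runs match the AP-1 motif. Looser forms of the core and of the AP-1 motif were not searched in any gene. Txnrd1 has 3 windows for alternative starts, and only the second holds the core. No match was found in the windows of Keap1, Slc7a11 and Nqo1, which says only that these letters are not in that stretch. A match is a description of sequence and not a measured binding site.

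Levels are given below as the log2 processed signal minus the 75th percentile of the array, so 0 is that percentile, and signals in intensity units precede them. The ADM array had 27676 probes well above background, the duct array 27849 and the acinar array 22654. The 75th percentile of the signal was 72.2, 95.7 and 35.2 units in the same order. The error that the scanner software gives for a spot was 0.14 to 0.27 log2 units for member probes well above background, and covers the spot only. A harder limit is that probes of the same gene differ: over genes with 2 such probes, the differences they gave lay a median of 0.78 to 0.98 log2 units apart and 2.57 to 3.13 at the 90th percentile. The second probe kept the direction of a 2-fold difference in 67.0% to 69.3% of genes. Of the members, Hmox1 and Prdx1 had 2 probes and the other 8 had 1. The labels were set against marker genes. Of 11 acinar markers 11 were at least 2-fold lower in duct than in acinar cells, and 10 were lower in ADM than in acinar cells. Of 9 duct markers compared 9 were higher in duct than in acinar cells, while in ADM 5 were higher and 1, Tspan8, lower, and the duct chloride channel gene Cftr was not well above background on any array. The metaplasia markers had 2 of 8 higher and 1 lower in ADM against acinar cells, 5 higher and 1 lower in duct against acinar cells, and 2 higher and 4 lower in ADM against duct cells. In dissected tissue, fewer cells of a type and less RNA per cell cannot be told apart.

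**Figure D1:**
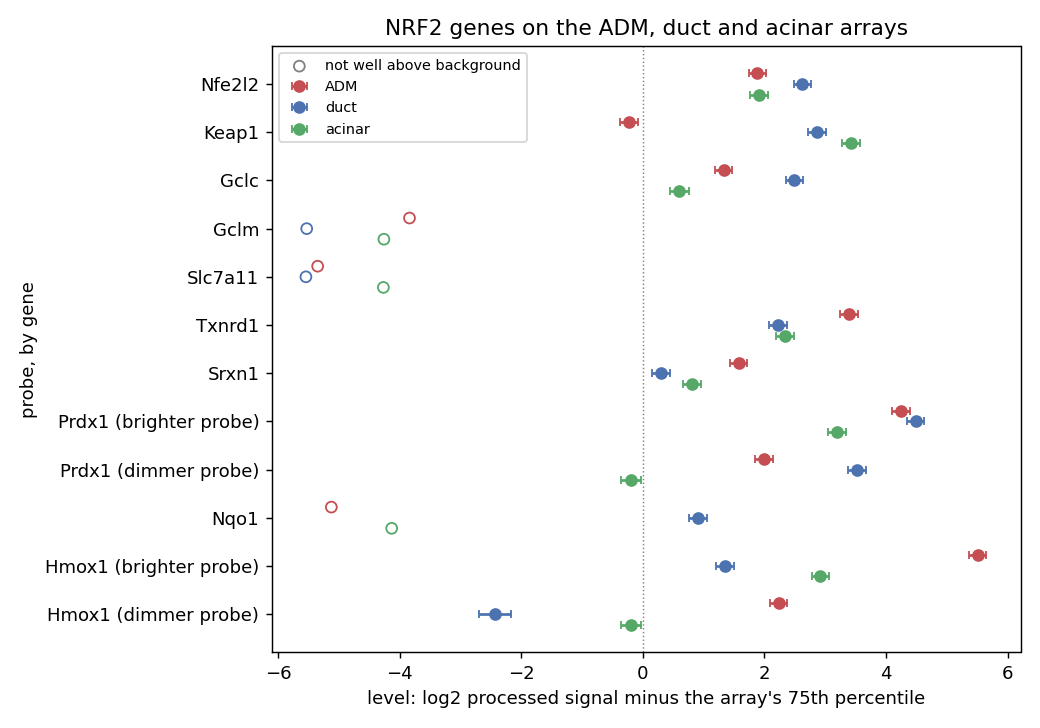
Level of each of the 12 member probes on the ADM, duct and acinar arrays, as log2 processed signal minus the 75th percentile of the array. Bars on filled points are the scanner software's error for the spot, not a replicate spread, and open circles, drawn without bars, are probes not well above background. Hmox1 lies at 5.51 in ADM, 1.35 in duct and 2.92 in acinar cells, while Keap1 lies at −0.23, 2.87 and 3.43.

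The pathway's regulator and its inhibitor behaved differently on the arrays. Nfe2l2, the NRF2 gene, had a signal of 267 units in ADM, 591.5 in duct and 132 in acinar cells, which are levels of 1.89, 2.63 and 1.91. After scaling, ADM and acinar cells were level to within −0.02 log2 units, and duct cells stood 0.72 above acinar and 0.74 above ADM cells. These differences are under 2-fold, and the sign of the ADM against acinar value turned with other scalings, to 0.05 with quantile normalization and to 0.30 with normexp, a model-based background correction. Duct against acinar passed 2-fold with normexp, where it was 1.004, with median scaling, where it was 1.103, and without scaling, where it was 2.16. Without scaling ADM against acinar was 1.01 and ADM against duct −1.15.

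Keap1, the inhibitor, had a signal of 61.5 units in ADM, 699 in duct and 379 in acinar cells. Its levels of −0.23, 2.87 and 3.43 place ADM cells apart and the other pair within 2-fold of each other. The difference of ADM from acinar cells was −3.66 ± 0.21 (scanner error), and 1.5% of 13632 genes compared had a lower one. The difference from duct cells was −3.10 ± 0.21, with 3.9% of 14475 genes lower. Under the 9 alternatives that gave a value, Keap1 kept its 2-fold call in both, between −3.66 and −2.41 against acinar and between −3.51 and −2.46 against duct. With 1 probe well above background on all arrays, the probe mean, the filters and the authors' value table repeat the main value. Only the background correction and the scaling could move the call. Duct against acinar was −0.56, and that sign turned with normexp (0.05) and with no scaling (0.88). A single probe carries all of these values.

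Hmox1 encodes haem oxygenase 1, which opens the haem ring and releases iron, carbon monoxide and biliverdin. Its brighter probe read 3291 units in ADM, 244 in duct and 267 in acinar cells, and its dimmer probe 340, 17.8 and 30.8. Scaled, the brighter probe stood at 5.51, 1.35 and 2.92 and the dimmer at 2.23, −2.43 and −0.19, so both ordered the groups ADM, acinar, duct. ADM against acinar was 2.59 by the first probe and 2.43 by the second, and ADM against duct was 4.16 and 4.66. Of the 14475 genes compared between ADM and duct, 98.5% had a lower difference than Hmox1. Duct against acinar was −1.57 and −2.23 by the same probes, but it shrank to −0.85 with normexp and to −0.13 without scaling, where the signals of both arrays are nearly equal. Both ADM differences stayed above 2-fold under the 10 alternatives run, from 2.43 to 3.63 against acinar and from 3.70 to 4.66 against duct. Among these the filters and the authors' value table repeat the main values.

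Macrophages express Hmox1 strongly as part of clearing red cells, and their markers are given beside it. Of 13 macrophage and monocyte markers 11 could be compared, of which ADM cells exceeded acinar cells by 2-fold or more in 8 and lay below them by as much in 0, with a median of 1.62. Against duct cells 8 were higher in ADM and 1 lower, with a median of 1.97. In duct against acinar cells 2 were higher and 7 lower, with a median of −1.17. Lyz2, the lysozyme of macrophages, stood at 3.23 in ADM, −1.64 in duct and 1.02 in acinar cells, and the complement gene C1qa at 3.13, −0.71 and 1.84. Cd14 had another order, at 1.72 in ADM and 2.93 in duct cells, and was not well above background in acinar cells. Cd68, Mrc1, Lyz2, C1qa and C1qb, 5 of the 11, were well above background on all arrays and had the group order of Hmox1. The haem-handling scavenger receptor gene Cd163 and Marco were not well above background on any array. The summed signal of the list was 0.357% of the named-gene signal in ADM, 0.297% in duct and 0.365% in acinar cells. Most of that sum was the integrin gene Itgam alone, at 9.54 in ADM, 9.07 in duct and 10.41 in acinar cells. The next brightest marker was Cd68 in ADM cells, at 5.32, and Csf1r in duct and acinar cells, at 3.68 and 4.72. The sum therefore says little about the other markers. Probes of Adgre1 and of Csf1r gave opposite directions in duct against acinar cells. In ADM against acinar cells they gave 3.1 and −0.8 for Adgre1, counted above as higher, and −0.07 and 1.91 for Csf1r. Of the haemoglobin genes, Hba-a1 followed the order of Hmox1, at 3.24, −1.45 and 0.24, but Hbb-bt did not, at −1.0 in ADM and 0.38 in acinar cells and not well above background in duct cells. The red cell genes Alas2 and Slc4a1 were not well above background on any array. The part of macrophages or of blood in the Hmox1 signal was not tested.

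**Figure D2:**
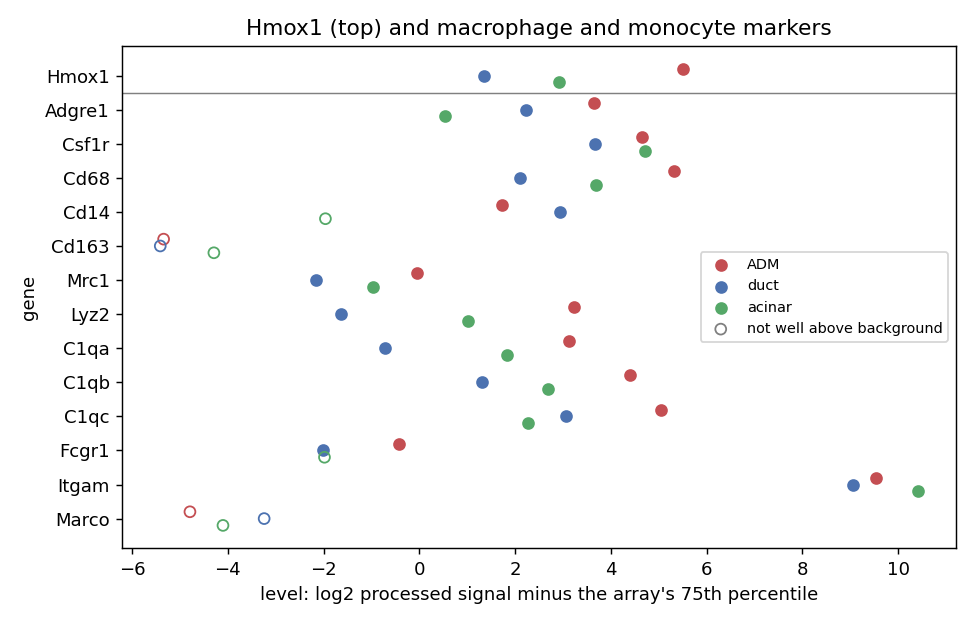
Levels of Hmox1 (brighter probe) and of 13 macrophage and monocyte markers on the ADM, duct and acinar arrays, as log2 processed signal minus the 75th percentile of the array. Open circles are probes not well above background. Hmox1 and 8 of the 11 markers compared have their highest point on the ADM array, and Cd163 and Marco are open circles on all 3.

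In the thioredoxin arm, which reduces oxidised protein cysteines and peroxides, the enzymes did not all share a pattern. Txnrd1 and Srxn1 were highest in ADM cells, and Prdx1 in duct cells by both of its probes. Txnrd1, cytosolic thioredoxin reductase, read 760 units in ADM, 448 in duct and 178 in acinar cells, with levels of 3.40, 2.23 and 2.34. ADM cells were 1.06 above acinar and 1.17 above duct cells, both just past 2-fold, while duct and acinar cells differed by −0.11. Srxn1, sulfiredoxin, which rescues overoxidised peroxiredoxins, read 215, 118 and 61.9 units, or 1.57, 0.30 and 0.81. ADM cells exceeded duct cells by 1.27 and acinar cells by 0.76. The ADM against duct values of both genes were under 2-fold with normexp (0.96 for Txnrd1 and 0.91 for Srxn1) and without scaling (0.76 and 0.86).

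Prdx1, a peroxiredoxin that breaks down hydrogen peroxide, was lowest in acinar cells by both of its probes. The brighter read 1370 units in ADM, 2148 in duct and 323 in acinar cells, or 4.25, 4.49 and 3.20. The dimmer read 287, 1102 and 30.7 units, or 1.99, 3.52 and −0.20. Duct against acinar was 1.29 by the first and 3.72 by the second, a gap of 2.43, so the size is not settled although the direction was shared. ADM against acinar was 1.05 and 2.19. For ADM against duct the first probe gave −0.24, within 2-fold, and the second −1.53.

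Glutathione synthesis depends on the ligase formed by Gclc, the catalytic subunit, and Gclm, the modifier, and on cystine import through Slc7a11. Gclc read 182 units in ADM, 538 in duct and 53.5 in acinar cells, with levels of 1.33, 2.49 and 0.60. Duct cells exceeded acinar cells by 1.89 ± 0.21 (scanner error), a 3.71-fold difference, and ADM cells lay between, 0.73 above acinar and 1.16 below duct. Duct over acinar and duct over ADM kept 2-fold under the 9 alternatives run, of which only the background correction and the scaling could move its 1 probe. The Gclm probe read 5.05, 2.07 and 1.84 units and the Slc7a11 probe 1.77, 2.06 and 1.83. All 6 readings were not well above background, so no order of the groups can be read from them, and both probes are missing from the authors' value table. Slc3a2, which encodes the partner chain of the Slc7a11 transporter and of other amino acid transporters, was well above background throughout, at 6.72 in ADM, 3.56 in duct and 6.59 in acinar cells.

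Nqo1, a quinone reductase and a common readout of NRF2, read 180 units in duct cells against 2.07 in ADM and 2.01 in acinar cells. Only the duct reading was well above background. Set against the lowest signal well above background on the other array, duct cells were at least 7.74-fold above acinar cells and at least 16.6-fold above ADM cells. With normexp, which adds an offset to every spot, the values were 1.19 for duct against acinar and −1.81 for ADM against duct, still past 2-fold. ADM and acinar cells could not be compared. The duct array also carried the duct markers, and their part in the levels of Nqo1 and Gclc was not tested.

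**Figure D3:**
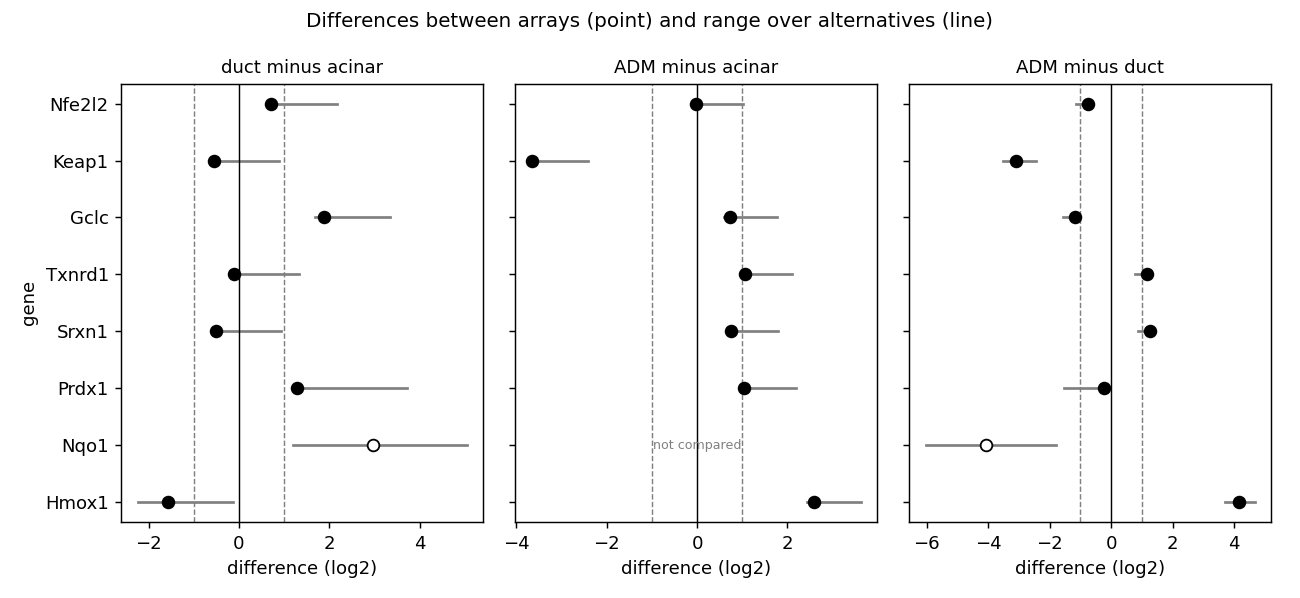
Difference between arrays, in log2 units, for the 8 members well above background on at least 1 array (points), with the range over the alternative settings (lines). Open points are bounds and dashed lines mark 2-fold. Hmox1 (2.59 and 4.16) and Keap1 (−3.66 and −3.10) lie past 2-fold in both ADM comparisons over their whole range, while the range of Nfe2l2 in ADM against acinar cells crosses 0.

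The members were also counted beside all genes compared on the same arrays. In duct against acinar cells 8 members could be compared, and 3 (Gclc, Prdx1 and Nqo1) were at least 2-fold higher and 1 (Hmox1) lower, with a median of 0.31. Over all 13826 genes, 27.4% were higher, 24.6% lower and 52.0% apart in either direction, with a median of 0.00. In ADM against acinar cells 7 could be compared, and 3 (Hmox1, Txnrd1 and Prdx1) were higher and 1 (Keap1) lower, with a median of 0.76. Among all genes 21.8% were higher, 22.0% lower and 43.8% apart, with a median of 0.00. In ADM against duct cells 8 could be compared, and 3 (Hmox1, Srxn1 and Txnrd1) were higher and 3 (Keap1, Gclc and Nqo1) lower, with a median of −0.49. Among all genes 21.6% were higher, 24.8% lower and 46.4% apart, with a median of −0.05. Each pair of these comparisons shares an array. Members past 2-fold were thus 4 of 8, 4 of 7 and 6 of 8, beside 52.0%, 43.8% and 46.4% of all genes, and over so few members nothing is read from their number. With median scaling the share of higher calls among all genes past 2-fold went from 52.7% to 64.7% in duct against acinar cells, and with normexp to 65.6%. In ADM against acinar cells normexp took it from 49.7% to 64.5%. Without scaling the median of all genes moved by 1.34, 0.86 and −0.41 log2 units in the 3 comparisons.

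Likeness of pattern was measured as the Euclidean distance between levels centred on each gene's mean over the 3 arrays, within the 55 members and pathway genes well above background on all of them. Nearest to Hmox1 was the stress sensor Sesn2, at 0.13, and the next, Gpx4, was at 1.69. Txnrd1 and Srxn1 were 0.29 apart, and nearest to Srxn1 was Ftl1, the ferritin light chain, at 0.14. Gclc lay nearest to the prostaglandin reductase Ptgr1 (0.18) and Prdx1 to Prdx2 (0.27). Keap1 had no close neighbour, its nearest being the exporter Abcc1 at 1.39. Nfe2l2 was nearest to Fech, at 0.23. Over 3 arrays such distances describe these libraries only.

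The rest of the pathway was followed in 6 lists of 61 genes, all of them on the array. Of 58 genes compared between duct and acinar cells, 25 (43.1%) lay 2-fold or more above acinar in duct and 10 (17.2%) lower. Of 58 between ADM and acinar cells, 23 (39.7%) were higher in ADM and 8 (13.8%) lower, and of 59 between ADM and duct cells 11 (18.6%) were higher and 13 (22.0%) lower. The medians were 0.47, 0.47 and −0.18. Without scaling the counts were 43 higher and 6 lower, 36 and 6, and 9 and 20. Those of all genes without scaling were 8153 and 1169 of 13826, 6195 and 1069 of 13632, and 2268 and 4924 of 14475. Over all genes compared, at the scaling used here, 27.4% were higher and 24.6% lower in duct against acinar cells. The shares were 21.8% and 22.0% in ADM against acinar cells, and 21.6% and 24.8% in ADM against duct cells. The ADM against duct shares of the lists were thus near those of all genes. Counts of single lists below are to be read beside these shares.

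NADPH supply provides the reducing power behind both the glutathione and the thioredoxin arm. Of its 7 genes, 5 exceeded acinar cells by 2-fold or more in duct and 0 were lower, with a median of 1.70, and 5 were higher in ADM and 0 lower, with a median of 1.75. G6pdx, which opens the pentose phosphate route, stood at 3.18 in ADM, 3.66 in duct and −1.09 in acinar cells, differences of 4.26 and 4.74 from acinar. Malic enzyme, Me1, was 4.61 higher in duct than in acinar cells (4.90 by a second probe), and ADM differed from duct cells by −2.85 (−1.96 by the second probe). Pgd, the next dehydrogenase after G6pdx, was at least 3.37 higher in ADM than in acinar cells and 1.67 higher than in duct cells. Taldo1 and Idh2 were within 2-fold of acinar cells in both, with Taldo1 at 4.28 in ADM, 4.88 in duct and 5.17 in acinar cells. Idh2 differed by −1.11 between ADM and duct cells. Of the fibroblast and stellate cell markers 8 of 11 were higher and 1 lower in duct against acinar cells, and 8 of 10 higher and 1 lower in ADM, and their part here was not tested.

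The detoxifying reductases and antioxidant enzymes had 6 of 13 genes higher in duct than in acinar cells and 1 lower, with a median of 0.87. Cbr3, a carbonyl reductase, was at least 6.02 higher, and Sod3, extracellular superoxide dismutase, at least 5.56. In ADM against acinar cells 5 were higher and 2 lower, with Cbr3 at least 3.63 higher and the aldo-keto reductase Akr1b8 2.97 higher. In ADM against duct cells 1 was higher, the epoxide hydrolase Ephx1 at 1.69 (−0.79 by a second probe), and 5 were lower. Osgin1 differed there by −5.18 and Sod3 by −4.01. The 2 probes of Nqo2 opposed each other, with duct against acinar at 4.13 and −3.38 and ADM against acinar at 1.77 and −3.26. Its direction is thus not settled, although it is counted above as higher than acinar cells in both. Catalase, Cat, differed by −1.42 in duct against acinar cells (−0.30 by a second probe), and Sod1, cytosolic superoxide dismutase, by 0.02, 0.17 and 0.14 in the 3 comparisons.

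Glutathione enzymes and transporters divided. In duct against acinar cells 2 of 10 were higher and 5 lower, with a median of −1.46. Slc3a2 was 8.14-fold lower in duct cells, and Glrx, a glutaredoxin, at least 15.1-fold lower, while the secreted peroxidase Gpx3 was 4.73-fold higher. In ADM against acinar cells 4 of 11 were higher and 3 lower, with a median of 0.13. Gpx3 was 4.64-fold higher there and Gpx4, the lipid peroxide reductase, 2.13-fold, while Ggt1, which breaks down extracellular glutathione, was 12.6-fold lower and Abcc1, a glutathione conjugate exporter, 11.9-fold lower. In ADM against duct cells 5 of 11 were higher and 1 lower, led by Glrx, at least 19.4-fold higher, and the glutathione synthetase Gss, at least 3.46 log2 units higher.

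**Figure D4:**
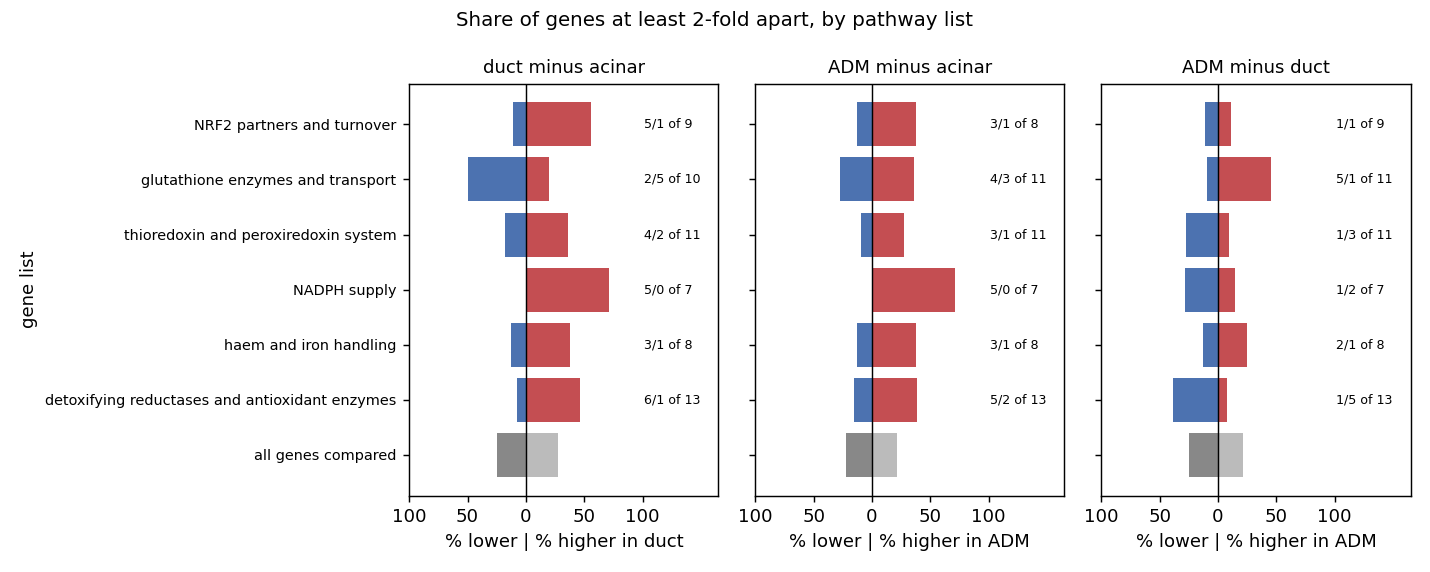
Share of genes at least 2-fold higher (right, red) or lower (left, blue) in each of 6 pathway lists, with the counts higher/lower of those compared beside the bars, and the same shares over all genes compared in grey. NADPH supply has 5 of 7 genes higher and 0 lower than acinar cells in both duct and ADM cells, against 27.4% and 21.8% of all genes higher.

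In the thioredoxin and peroxiredoxin system 4 of 11 genes were higher and 2 lower in duct than in acinar cells, with a median of 0.26. Txnip, an inhibitor of thioredoxin, was 1.83 higher (0.45 by a second probe) and the peroxiredoxin Prdx6 1.74 higher (0.85 by a second probe), while Prdx4, the peroxiredoxin of the secretory pathway, differed by −2.33. In ADM against acinar cells 3 were higher and 1 lower, with a median of −0.10 that changed sign with other scalings, up to 0.33. Txnrd3 was at least 2.91 higher, Sesn2 2.51 higher, and Prdx4 differed by −3.17. In ADM against duct cells 1 was higher, Sesn2 at 3.97, and 3 were lower, among them Prdx6 at −1.80 and Txnip at −1.51 (0.13 by a second probe). Txn1, thioredoxin itself, differed by at most 0.36 in size, from −0.36 in duct against acinar to 0.26 in ADM against duct cells.

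Genes of haem and iron handling had 3 of 8 higher and 1 lower in duct than in acinar cells, and the same counts in ADM against acinar cells, with medians of 0.12 and 0.74. Blvra, biliverdin reductase, which takes up the product of haem oxygenase, was 2.16 higher in duct than in acinar cells, and Hmox2, the constitutive haem oxygenase, 2.02 higher (0.52 by a second probe). Hmox2 was 1.13 higher in ADM than in acinar cells (3.02 by a second probe). Abcb6, a porphyrin transporter, differed by −3.48 in duct and by at least −6.39 in ADM from acinar cells. In ADM against duct cells 2 were higher and 1 lower, with the iron exporter Slc40a1 at 1.48 and Abcb6 at least −2.91. The ferritin genes Fth1 and Ftl1 were within 2-fold of acinar cells in both by the brighter probe, although a second probe of Ftl1 gave 1.06 for ADM against acinar cells. Ftl1 was 1.21 higher in ADM than in duct cells (1.40 by the second probe). The median of this list in ADM against duct cells, −0.02, changed sign with other scalings.

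Among partners of NRF2 and genes of its turnover, 5 of 9 were higher and 1 lower in duct than in acinar cells, with a median of 1.24. Bach1, the repressor that competes with NRF2 at its elements, was 2.07 higher and the kinase gene Gsk3b 1.51 higher, while Nfe2l1, a relative of Nfe2l2, differed by −5.04 or more in size, a bound. In ADM against acinar cells 3 of 8 were higher and 1 lower, with Bach1 at 1.66, the small MAF gene Mafg at 1.19 (−0.18 by a second probe) and Nfe2l1 at −3.43. In ADM against duct cells 1 of 9 was higher and 1 lower. The lower gene was Btrc, a ligase adaptor, at least −3.70 by the brighter probe and 1.51 by the other, so its direction is not settled. The median of that comparison, −0.14, changed sign with other scalings. Cul3 and Rbx1, the ligase that works with KEAP1, were within 2-fold in all comparisons, from −0.28 to 0.53.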

How the data were processed

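RNA of each dissected cell type was amplified from 1.181 ng and labelled with Cy3, per the labels' protocols. Agilent Feature Extraction 11.5.1.1, named in the file headers, subtracted background and spatial trend. The authors deposited these spot values as linear intensity, with an error and flags. Their deposited value table is the log2 processed signal minus a constant for each array, within 0.001 for all 32905 non-control probes, and served as an alternative.

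Control spots (3671) and outlier spots (110 to 117 an array) were left out, and each array's 75th percentile was subtracted from the log2 processed signal. RefSeq accessions gave 28020 probes 1 symbol and 27644 none, through a GRCm38.p6 table used for names only, since the design is on mm9. The probe with the highest mean stood for a gene. A side not well above background was raised to the array's dimmest reading that was, if its own was lower, which gives a bound ("at least"). Calls start at 2-fold.

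Of each pathway list up to 2 genes a direction and comparison were named, the largest that kept 2-fold under 4 background and scaling alternatives. Cat, Ftl1, genes within 2-fold, genes whose probes opposed each other, and markers named for their order, level or absence were chosen after their values were seen. The members and lists were chosen with earlier results of these data known. Alternatives were normexp (limma 3.58.1, offset 50, on median spot signals), 3 scalings, 2 probe choices, 2 filters, the value table and, added after the data were seen, no scaling. The calculation was tested on simulated data (Python 3.11.15, R 4.3.3). No spot was saturated.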

Additional observations from a re-analysis of the deposited data

How the results depend on the processing

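Counts of members past 2-fold were 4, 4 and 6 for duct against acinar, ADM against acinar and ADM against duct cells, and stayed within 1.5 times of that under the other background, scaling, filter, probe and source settings, except the second-brightest probe, which exists for 2 members and gave 2, 2 and 2. Without scaling ADM against acinar had 7. Counts over the pathway lists were 35, 31 and 24, and the second-brightest probe, compared for 13, 14 and 13 genes, gave 6, 7 and 6. No called member difference changed sign under the alternatives run for it. The filters and the value table could not change it for probes well above background on all arrays. Normexp called fewer of all genes: 2845 higher and 1494 lower in duct than in acinar cells, against 3791 and 3398, then 1681 and 927 in ADM against acinar, against 2966 and 2999, and 1472 and 2147 in ADM against duct, against 3121 and 3594. Without scaling these were 8153 and 1169, 6195 and 1069, and 2268 and 4924. The cause was not tested. No paired analysis was possible because each group has 1 array, and no replicate could be left out. Signal over background limits Gclm, Slc7a11 and Nqo1 as described above.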

Other observations

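Markers of the other cell types a dissected field can hold were counted beside the members. Fibroblast and stellate cell markers had a median of 1.69 in duct and 2.50 in ADM against acinar cells, and −0.16 in ADM against duct cells, with the surface marker Thy1 at least 7.19 higher in duct than in acinar cells. In duct against acinar cells 4 of 6 endothelial markers stood higher and 1 lower, and in ADM against acinar cells 4 of 7 and 1, with medians of 2.67 and 1.40. Of the 6 neutrophil markers on the array 1 was well above background on the duct and acinar arrays, where S100a8, S100a9, Mpo, Elane and Retnlg were not. On the ADM array 5 of 6 were well above background, with Retnlg at 2.44 and S100a9 at 1.40. S100a8 and Elane, at −2.69 and −2.16 there, lay under the lowest acinar level well above background, −2.04. Of 5 compared, 2 were higher and 0 lower in ADM against acinar cells, and 3 and 0 against duct cells. The remaining marker, Csf3r, stood at 7.35 in ADM, 7.22 in duct and 7.77 in acinar cells. The summed signal of the list was 0.0681%, 0.0763% and 0.056% of the named-gene signal, most of it Csf3r alone on each array. Of 6 lymphocyte markers compared between ADM and acinar cells 3 were higher in ADM and 1 lower, and the B cell gene Ms4a1 was not well above background on any array. Of 7 islet markers 4 were higher and 0 lower in ADM against acinar cells, and 2 higher and 0 lower in duct against acinar cells. The insulin genes Ins1 and Ins2 were well above background on all arrays, at levels from 7.70 to 9.25. Among the metaplasia markers Mmp7 was at least 5.22 higher and Cd44 2.45 higher in ADM than in acinar cells, although a second probe of Cd44 gave −0.19. Acinar markers kept 2.71% of the named-gene signal in ADM and 0.689% in duct cells, against 5.73% in acinar cells.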
